A study of Rattus norvegicus with 17 samples.

Results

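The messages of the liver's heme synthesis enzymes and of Clpx were followed across vehicle and 4 doses of isopropylated phenol phosphate (IPP), an aryl phosphate used as a flame retardant and plasticizer. The set was defined by gene symbol as Alas1, Alad, Uros, Urod, Cpox, Ppox, Fech and Clpx, and all 8 were measured among 14217 genes with 1 symbol on the array. Where several probe sets carried a symbol, the one brightest on average across the 17 arrays was read, which was a choice only for Uros, with 2 probe sets.

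All 17 animals were male Harlan Sprague-Dawley rats dosed by oral gavage with corn oil as the carrier, once daily on 4 days, and pieces of the left liver lobe were taken the day after. The groups were vehicle (corn oil alone, 5 rats) and IPP at 76.5, 153, 305.5 and 611 mg/kg (3 rats each), with 1 array per rat. In molar terms the lowest dose was 0.169 mmol/kg and the highest 1.35 mmol/kg, and the protocol rounds 76.5 to 77 and 305.5 to 306 mg/kg. The tissue was whole liver, so that for every gene below fewer cells of a type and less RNA per cell cannot be told apart.

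Heme is built from glycine and succinyl-CoA in a pathway that begins and ends in the mitochondrion. ALAS1, the housekeeping form of 5-aminolevulinate synthase, catalyses the first and rate-limiting step, and its gene is repressed by heme and induced in liver by drugs that raise the demand for cytochromes P450. ClpX is the unfoldase subunit of the mitochondrial ClpXP protease. In mammalian cells it takes part in the heme-dependent removal of ALAS1 protein, and in yeast and mammals it also helps to load the pyridoxal phosphate cofactor onto the synthase.

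The proximal promoter of Alas1 is shown because Alas1 rose at the highest dose and because the rat gene is a known target of nuclear respiratory factor 1 (NRF1). RefSeq's promoter table (GRCr8) held 6 of the 8 genes, and Clpx and Cpox are named only. The window runs from 250 bases before to 50 bases after the annotated start, chr8:115768593-115768892, minus strand, written in the direction of transcription. Capitals mark matches to the NRF1 motif, read as GCGC, then any base, then TGCGC, and searched on both strands.
Alas1: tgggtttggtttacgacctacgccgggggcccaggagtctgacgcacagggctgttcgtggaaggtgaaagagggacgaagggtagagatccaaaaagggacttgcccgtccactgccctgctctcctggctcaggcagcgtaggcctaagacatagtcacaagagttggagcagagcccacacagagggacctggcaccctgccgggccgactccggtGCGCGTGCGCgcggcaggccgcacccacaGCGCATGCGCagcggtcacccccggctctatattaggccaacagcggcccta
The first match lies 31 to 22 bases upstream of the annotated start, and the second runs from 2 bases upstream to base 8 of the gene, without overlap. At least 1 match was found in 4.25% of all 33469 promoters of this length and at least 2 in 0.624%. None of the other 5 members with a promoter in the table held the motif. Core matches to the element bound by REV-ERB and ROR factors (AGGTCA) were found in none of the 6 windows, against 16.2% of all promoters. The E-box CACGTG, which clock factors bind, had 2 matches in Alad and 1 in Urod, and 6.42% of all promoters held it. These matches describe letters in a window and were not tested as sites.

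Values are log2 signals deposited after RMA normalization, and a difference of 1 is a change by a factor of 2. Precision is limited by how many arrays each group has. Each difference is a dose group less vehicle, with its SE, estimated by limma jointly from the 17 arrays (n = 3 per dose, n = 5 vehicle), with Benjamini-Hochberg adjustment over all 14217 genes, and a gene passed with an adjusted p under 0.05. The 4 comparisons with vehicle share the 5 vehicle rats. The labels give 1 animal per array. Arrays of 611 mg/kg rat 2 and of 76.5 mg/kg rats 2 and 3 stood apart from the rest. Their median correlations with the other arrays were 0.984, 0.987 and 0.986, against 0.991 to 0.993 elsewhere, and the GAPDH control difference (3' minus 5') was 2.89 for 611 mg/kg rat 2 and at most 1.56 for any other.

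Of the 8 genes, Alas1 was higher at the highest dose and Clpx was lower at the 3 upper doses. At 76.5 mg/kg 0 members passed in limma, against 0.267% of all genes. At an unadjusted p under 0.05 there was 1 of 8 (Clpx), against 10.7% of all genes. At 153 mg/kg 1 member passed, against 0.746% of all genes, and at 305.5 mg/kg 1 passed, against 2.22%. At 611 mg/kg 2 of 8 passed (Alas1 and Clpx), where 7.46% of all genes passed. Values did not overlap with vehicle for 1 member at 76.5 mg/kg (6.30% of all genes), 2 at 153 mg/kg (12.7%), 2 at 305.5 mg/kg (13.7%) and 3 at 611 mg/kg (18.6%). Between neighbouring doses 0 members passed in limma, against 0, 0 and 0.324% of all genes from the lowest pair to the highest. At an unadjusted p under 0.05 there were 0, 1 and 2 of 8 members, against 7.98%, 9.41% and 16.0% of all genes. Neighbouring groups did not overlap for 2 members between 153 and 76.5 mg/kg (11.2% of all genes), 3 between 305.5 and 153 mg/kg (18.2%) and 2 between 611 and 305.5 mg/kg (20.4%). The slope over the dose groups, with the brightest probe set of each gene, passed for 2 members and for 6.74% of all genes. The median difference over the 8 members at 611 mg/kg was -0.04, against -0.0029 over all genes.

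The rate-limiting gene rose at the highest dose. Alas1 signals were 10.59, 10.22, 10.39, 9.99 and 10.28 in vehicle rats. They were 10.22, 10.40 and 10.00 at 76.5 mg/kg and 10.37, 10.44 and 10.64 at 153 mg/kg. The next dose, 305.5 mg/kg, gave 10.68, 10.59 and 10.77, and 611 mg/kg gave 11.50, 11.19 and 11.02. All 3 rats at 611 mg/kg lay above every other rat of the study, while each lower dose overlapped the vehicle range, at 305.5 mg/kg by 1 rat just below the highest vehicle rat (both 10.59). Alas1 averaged 11.24 ± 0.24 at 611 mg/kg (SD, n = 3) and 10.29 ± 0.22 in vehicle (SD, n = 5), a difference of 0.94 ± 0.13 or 1.93-fold (limma adjusted p = 0.000541, 95% interval 0.67 to 1.22). This was the 43rd smallest p among all genes in that comparison. With those 3 arrays removed, which leaves 2 rats at this dose, Alas1 differed by 0.97 (adjusted p = 0.00203).

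Below the highest dose Alas1 did not pass the test. Its difference was -0.09 ± 0.13 at 76.5 mg/kg (limma adjusted p = 0.873), 0.19 ± 0.13 at 153 mg/kg (adjusted p = 0.594) and 0.38 ± 0.13 at 305.5 mg/kg (adjusted p = 0.176). The 305.5 mg/kg difference passed when arrays were weighted by their reliability (0.40, adjusted p = 0.0404). The step between 305.5 and 611 mg/kg was 0.56 ± 0.15, with all 3 rats at 611 mg/kg above the 3 at 305.5 mg/kg, and did not pass (adjusted p = 0.124). A slope on the rank of the group (0 to 4) gave 0.22 ± 0.04 per step (adjusted p = 0.00128), and 0.13 per step with the 611 mg/kg group left out (adjusted p = 0.125).

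Clpx, by contrast, was lower in every treated rat. Its signals were 11.54, 11.84, 11.83, 11.60 and 11.55 in vehicle rats. At 76.5 mg/kg they were 11.36, 11.27 and 11.23, and at 153 mg/kg 11.17, 11.18 and 11.18. At 305.5 mg/kg they were 10.98, 10.85 and 11.14, and at 611 mg/kg 10.89, 10.86 and 10.98. No treated rat reached the lowest vehicle rat, a pattern that 77 genes (0.542%) showed in this direction. The group mean was lower at each of the 4 steps of dose, as it was for 221 genes (1.55%), and Clpx was the member of the set that did both.

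**Figure D1:**
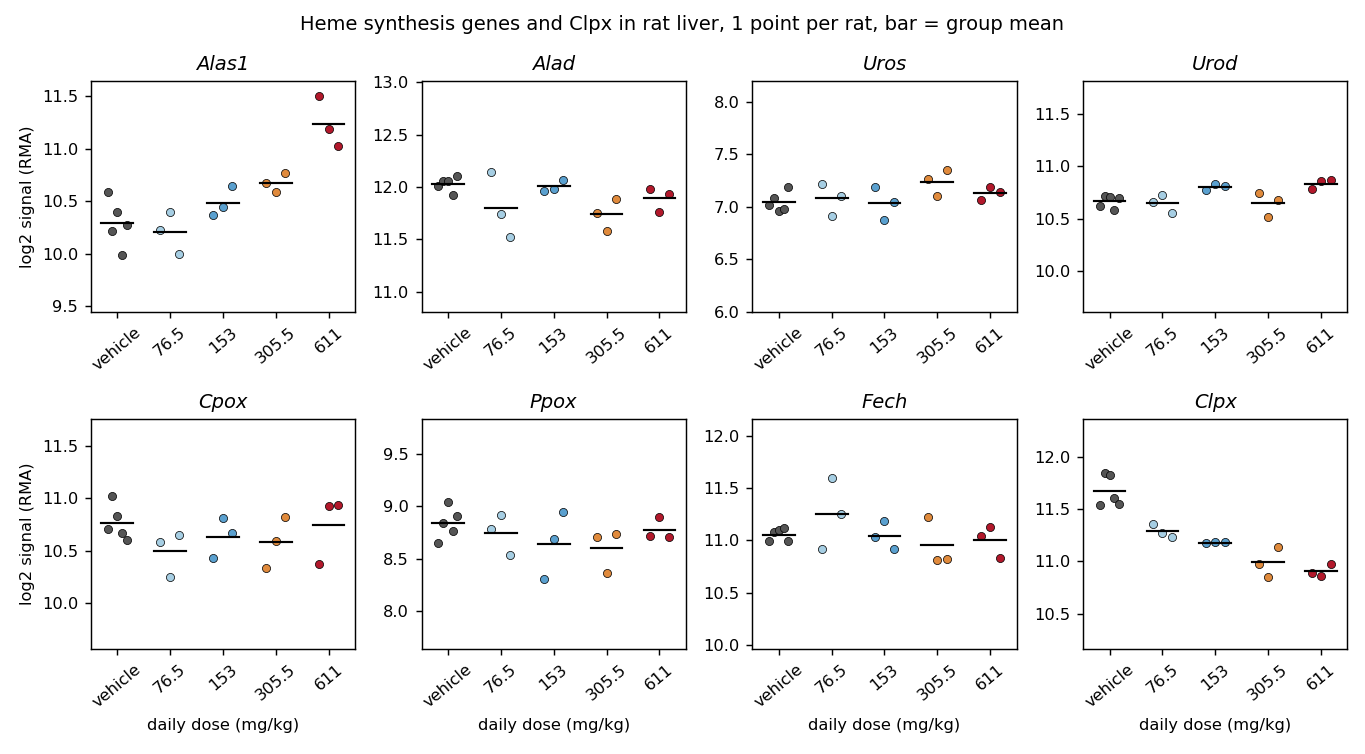
Log2 signal (RMA, vertical axis, with the same span in every panel) of the 8 genes by daily dose in mg/kg, 1 point per rat with a bar at the group mean. Alas1 lies at 11.02 to 11.50 at 611 mg/kg, above all other rats, and Clpx lies below the vehicle rats at every dose.

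At 611 mg/kg Clpx averaged 10.91 ± 0.06 (SD, n = 3), against 11.67 ± 0.15 in vehicle (SD, n = 5). It fell by 0.76 ± 0.09, to 0.589 of the vehicle level (limma adjusted p = 0.000131, 95% interval -0.95 to -0.58), the 12th smallest p of that comparison. At 76.5 mg/kg the difference was -0.39 ± 0.09 and missed the threshold (adjusted p = 0.0925), although the 3 rats lay below the vehicle range. Clpx fell by 0.49 ± 0.09 at 153 mg/kg (adjusted p = 0.0124) and by 0.68 ± 0.09 at 305.5 mg/kg (adjusted p = 0.000519). The call at 153 mg/kg was lost without rat 1 or rat 2 of that dose (adjusted p = 0.0666 and 0.0747) while the difference stayed at -0.49 in both.

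The Clpx slope was -0.19 ± 0.02 per step of dose (limma adjusted p = 3.57e-05), the 7th smallest p of all genes. Over the 12 treated rats alone it was -0.13 per step and did not pass (adjusted p = 0.103). Steps between neighbouring doses were -0.11 ± 0.10, -0.19 ± 0.10 and -0.08 ± 0.10, from the lowest pair to the highest, and none passed (adjusted p = 0.814, 0.573 and 0.699). With the same 3 arrays removed, the Clpx difference at 611 mg/kg was -0.74 (adjusted p = 0.00103).

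The other 6 enzymes, each read from its brightest probe set, did not pass the test at any dose. Alad, which condenses aminolevulinate to porphobilinogen, ranged from 11.76 to 11.98 at 611 mg/kg and from 11.92 to 12.10 in vehicle. Its difference was lowest at 305.5 mg/kg (-0.29 ± 0.11, limma adjusted p = 0.214), where the 3 rats lay below the vehicle range, and it passed there once the 3 arrays were removed (adjusted p = 0.0242). The middle dose of 153 mg/kg gave -0.03 ± 0.11, so that the group means of Alad did not follow the order of the doses.

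Urod, which removes carboxyl groups from uroporphyrinogen in the cytosol, varied little between rats. It ranged from 10.78 to 10.87 at 611 mg/kg and from 10.58 to 10.72 in vehicle, groups that did not overlap. The difference of 0.17 ± 0.07 did not pass (limma adjusted p = 0.167). Rats at 153 mg/kg also lay above the vehicle range (10.78 to 10.83), and those at 305.5 mg/kg did not (10.51 to 10.74).

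The remaining steps return the pathway to the mitochondrion. Cpox, which oxidises coproporphyrinogen, lay between 10.37 and 10.94 at 611 mg/kg and between 10.60 and 11.02 in vehicle (difference -0.02 ± 0.15, limma adjusted p = 0.952). Ppox, which oxidises protoporphyrinogen, lay between 8.71 and 8.90 at 611 mg/kg and between 8.65 and 9.04 in vehicle (difference -0.06 ± 0.14, adjusted p = 0.811). Fech, the ferrochelatase that inserts iron, lay between 10.83 and 11.13 at 611 mg/kg and between 10.99 and 11.11 in vehicle (difference -0.06 ± 0.13, adjusted p = 0.829). All these groups overlapped. With the brighter Uros probe set, the 95% intervals of the 6 enzymes at 611 mg/kg reached at the outside -0.37 (Alad) and 0.33 (Urod), and the lower bound for Alas1 was 0.67.

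**Figure D2:**
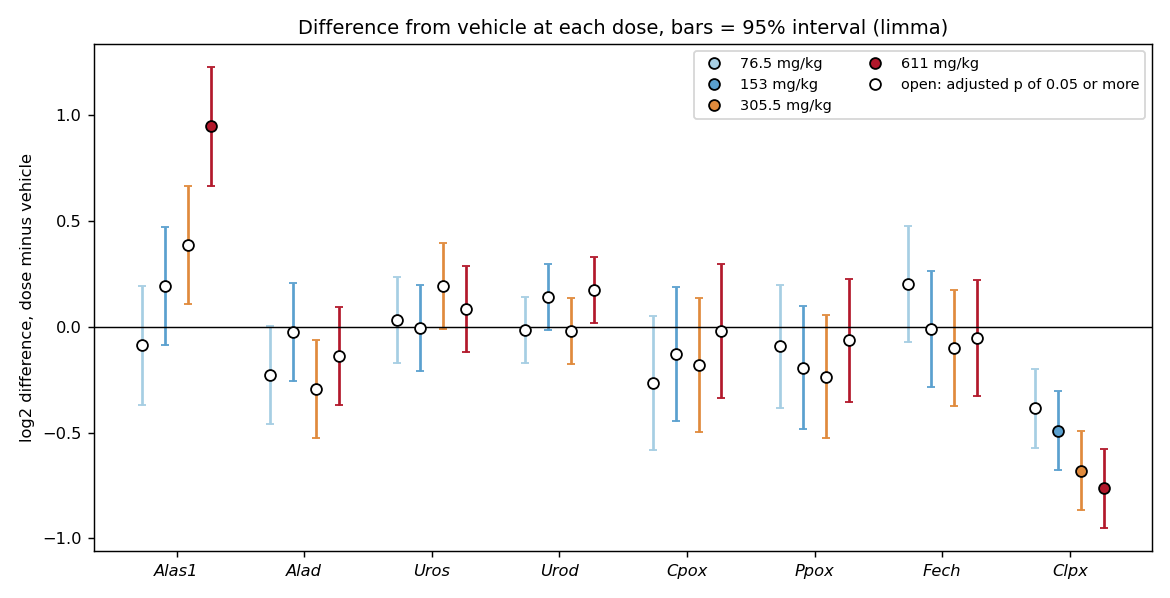
Log2 difference from vehicle (vertical axis) of each gene at each dose, with 95% intervals from limma. Filled points passed at an adjusted p under 0.05, which holds for Alas1 at 611 mg/kg (0.94) and for Clpx at 153, 305.5 and 611 mg/kg (-0.49, -0.68 and -0.76).

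The 2 probe sets of Uros, which closes the ring to uroporphyrinogen III, gave unlike results. The brighter on average, used above, lay between 7.07 and 7.18 at 611 mg/kg and between 6.96 and 7.19 in vehicle (difference 0.08 ± 0.10, limma adjusted p = 0.625). The dimmer one had 7.14, 7.67 and 7.31 at 611 mg/kg, against 6.77, 6.72, 6.76, 6.85 and 6.65 in vehicle. It rose by 0.62 ± 0.12 when all named probe sets were fitted separately (adjusted p = 0.00761), and its 95% interval of 0.37 to 0.88 overlapped that of Alas1. Its highest value came from 611 mg/kg rat 2, the array with the largest GAPDH 3' minus 5' difference, and without that rat the difference was 0.48 (adjusted p = 0.0497). The mean of both probe sets passed as well at 611 mg/kg (0.35, adjusted p = 0.0271). At 76.5, 153 and 305.5 mg/kg the dimmer set differed by 0.29, 0.31 and 0.35 and did not pass (adjusted p = 0.442, 0.383 and 0.205). Its rats lay above the vehicle range at 76.5 mg/kg (6.93 to 7.09) and 153 mg/kg (6.95 to 7.18), but not at 305.5 mg/kg (6.83 to 7.31). Read from the brightest probe sets, groups did not overlap at the 2 lower doses for 6.30% and 12.7% of all genes. On the slope the dimmer set passed (0.14 ± 0.03 per step, adjusted p = 0.00695), as did the mean of both (0.08, adjusted p = 0.0147). The brighter set did not (0.03 ± 0.02, adjusted p = 0.430). Which probe set follows Uros messenger RNA was not tested, so no direction is given for this gene.

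**Figure D3:**
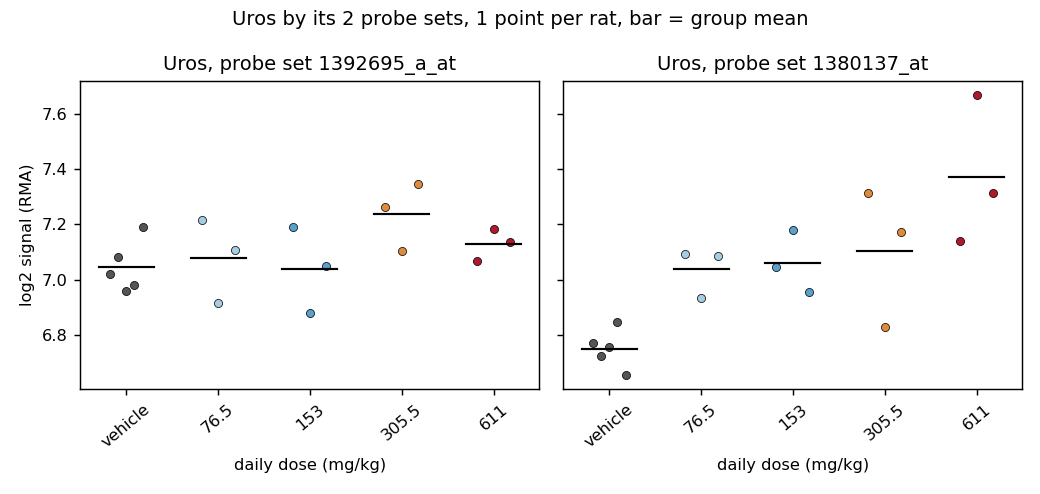
Log2 signal (RMA) of the 2 Uros probe sets by daily dose in mg/kg, 1 point per rat with a bar at the group mean. At 611 mg/kg the left set overlaps vehicle, and the right set lies at 7.14 to 7.67, above the vehicle rats at 6.65 to 6.85.

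Across the 17 rats Alas1 and Clpx ran in opposite directions. Pearson's r was -0.67 (permutation p = 0.00362, adjusted over 7 pairs p = 0.0253) and Spearman's rho was -0.75 (permutation p = 0.00082, adjusted p = 0.00574), both 2-sided from 100000 resamples. Without the 2 rats farthest from the Alas1 median, 611 mg/kg rats 1 and 2, r was -0.56. The resamples shuffled all 17 rats without regard to dose group. The permutation p-values here therefore cannot separate a shared response to dose from a relation between rats. The relation of Alas1 and Clpx was not seen within dose groups, where deviations from the group means gave r = 0.02. Of the other 6 pairs, Alas1 with Urod had the largest r (0.57, permutation p = 0.0173, adjusted p = 0.0606), which did not pass, and its deviations gave r = 0.25.

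**Figure D4:**
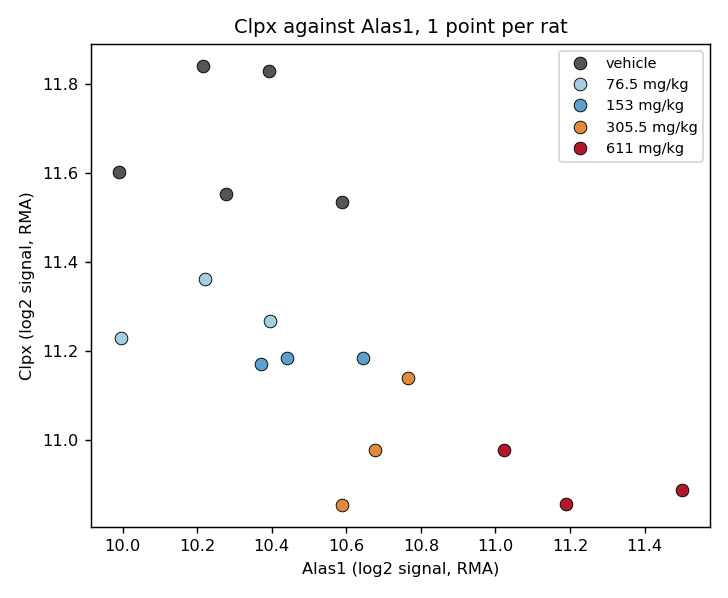
Clpx against Alas1 (log2 signal, RMA, on both axes), 1 point per rat, coloured by daily dose. The groups step down in Clpx from vehicle to 611 mg/kg, and the 3 rats at 611 mg/kg lie farthest right, at 11.02 or more in Alas1.

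Transporters and partners of the pathway were taken from a list of 14 genes, of which 11 were measured. At 611 mg/kg 1 was higher, 1 lower and 9 did not pass, where 7.46% of all genes passed, and the median difference was 0.14. Pgrmc1, a membrane protein that binds heme and partners with cytochromes P450, rose by 0.31 ± 0.07 (limma adjusted p = 0.0165), at 13.82 to 14.12 against 13.52 to 13.70 in vehicle. Alas2, the erythroid form of the synthase, fell by 1.34 ± 0.23 (adjusted p = 0.00280), with means of 6.83 ± 0.39 at 611 mg/kg (SD, n = 3) and 8.17 ± 0.19 in vehicle (SD, n = 5). The signals of Alas1 and Alas2 thus moved in opposite directions at this dose. Alas2 is also in the red cell list below. There all 7 measured markers had negative differences at this dose, and Hbb and Hba-a3 passed too. The porphyrin transporter Abcb6 and the heme transporter Slc48a1 lay above the vehicle range in all 3 rats without passing (0.25 ± 0.11 and 0.22 ± 0.11, adjusted p = 0.187 and 0.218). Groups did not overlap at this dose, in either direction, for 18.6% of all genes.

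Heme breakdown and scavenging genes did not pass at any dose (0 of 6 measured, limma), and at 611 mg/kg 1 of them, the biliverdin reductase gene Blvrb, had an unadjusted p under 0.05 (0.39 ± 0.18, adjusted p = 0.189), as did 24.2% of all genes. Hmox1, which encodes the inducible heme oxygenase, was 8.91 to 9.55 at 611 mg/kg and 8.59 to 9.28 in vehicle (0.36 ± 0.48, adjusted p = 0.683). At 76.5 mg/kg 1 rat reached 12.03 for Hmox1 and the other two lay at 8.70 and 9.11.

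Of 13 measured regulators of Alas1, 2 were higher, 1 was lower and 10 did not pass at 611 mg/kg (median -0.12). Of all genes 7.46% passed at this dose. The 2 that rose were Nr1d1 (3.28 ± 0.22, limma adjusted p = 1.25e-07) and Nr1d2 (2.03 ± 0.12, adjusted p = 4.2e-08), which encode heme-binding repressors of the clock. Nr1d1 was already higher at the lowest dose, by 2.87 ± 0.22 (adjusted p = 3.17e-06). Nr1d2 was higher there by 1.35 ± 0.12 (adjusted p = 2.49e-05), and both genes passed at every dose. Alas1 differed by -0.09 ± 0.13 at the lowest dose and did not pass (adjusted p = 0.873). A relation of Nr1d1 or Nr1d2 to Alas1 was not tested. Egr1, an immediate early transcription factor, fell by 2.35 ± 0.52 at 611 mg/kg (adjusted p = 0.0115). Egr1 also passed as lower at the next dose down (-2.99 ± 0.52, adjusted p = 0.00466). It did not pass at the lowest dose (-1.90 ± 0.52, adjusted p = 0.175). At 611 mg/kg Nrf1, whose protein binds the motif shown above, differed by 0.01 ± 0.13 (adjusted p = 0.976). The coactivator gene Ppargc1a differed there by 0.05 ± 0.17 (adjusted p = 0.890). The xenobiotic receptor genes Nr1i3 (-0.13 ± 0.31, adjusted p = 0.838) and Nr1i2 (-0.26 ± 0.12, adjusted p = 0.195) did not pass. Messages of the proteases that act beside ClpX did not pass either, with 0.07 ± 0.09 for Clpp, the peptidase partner of ClpX (adjusted p = 0.668), and 0.08 ± 0.08 for Lonp1 (adjusted p = 0.583).

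Among 15 measured heme-carrying enzymes and cytochromes 0 were higher and 1 lower at 611 mg/kg, with a median of 0.01. Of all genes 7.46% passed at this dose. Of the 19 genes listed, Cycs and the P450 genes Cyp2b1, Cyp2b2 and Cyp3a23/3a1 were not measured. The gene that passed was the fatty acid omega-hydroxylase Cyp4a1 (fell by 0.61 ± 0.14, limma adjusted p = 0.0115). Cyp7a1, the rate-limiting enzyme of bile acid synthesis, had a difference of 2.05 ± 0.74 at 611 mg/kg that did not pass (adjusted p = 0.102). Its rats at 153, 305.5 and 611 mg/kg all lay above the vehicle range. Groups did not overlap at these doses, in either direction, for 12.7%, 13.7% and 18.6% of all genes. Cyp7a1 passed on the slope (0.56 ± 0.16 per step, adjusted p = 0.0372). Cyp51, a sterol demethylase, had 0.49 ± 0.18 (adjusted p = 0.104) and Cyp3a18, a drug-metabolising enzyme, 0.45 ± 0.15 (adjusted p = 0.0755). Of 7 measured iron handling genes 1 passed at 611 mg/kg (7.46% of all genes) and 2 (Tfrc and Hamp) on the slope over the dose groups (6.74%). The transferrin receptor gene Tfrc fell by 0.66 ± 0.15 at 153 mg/kg (adjusted p = 0.0432), by 0.78 ± 0.15 at 305.5 mg/kg (adjusted p = 0.00776) and by 0.72 ± 0.15 at 611 mg/kg (adjusted p = 0.00723). Its signal was 9.77 to 10.08 at 611 mg/kg and 10.27 to 11.08 in vehicle. At 76.5 mg/kg Tfrc differed by -0.62 ± 0.15 and did not pass (adjusted p = 0.105). All 3 rats of that dose lay below the vehicle range for Tfrc. Groups did not overlap there, in either direction, for 6.30% of all genes. Hamp, which encodes the iron hormone hepcidin, had a difference of 0.46 ± 0.15 at 611 mg/kg (adjusted p = 0.0759) and rose by 0.11 ± 0.03 per step on the slope (adjusted p = 0.0404).

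**Figure D5:**
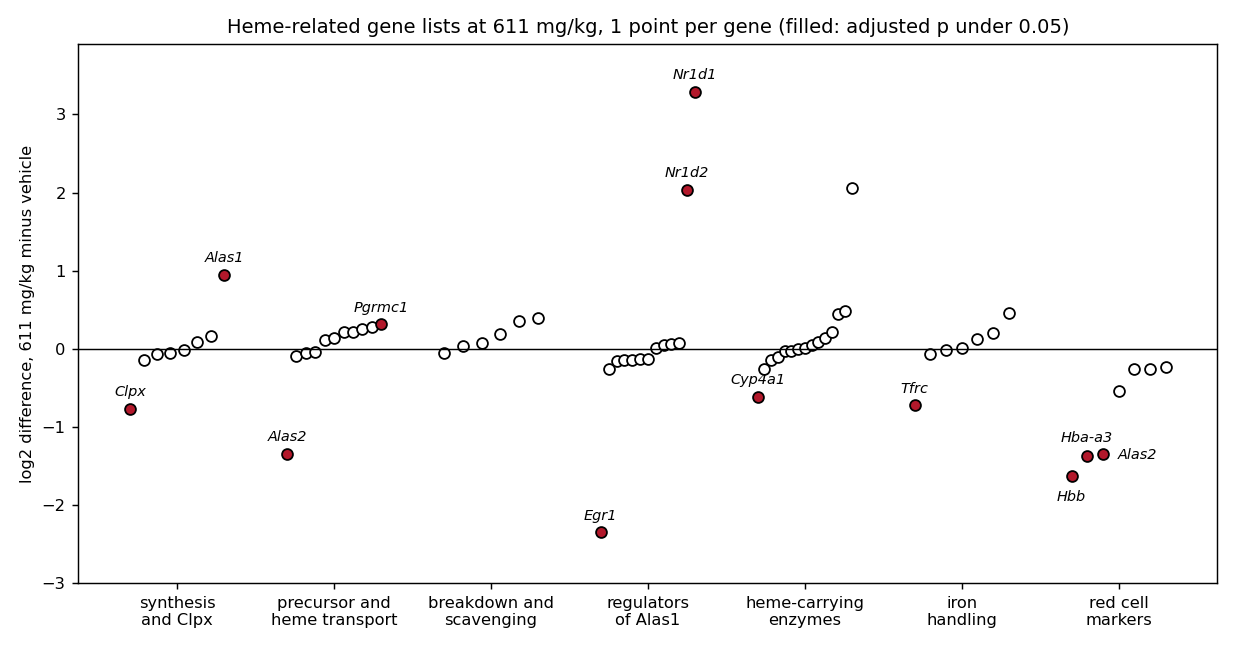
Log2 difference at 611 mg/kg minus vehicle (vertical axis) for each measured gene of 7 lists, with filled, named points for an adjusted p under 0.05. With the brightest probe set of each gene, Alas1 (0.94) passed as higher and Clpx (-0.76) as lower in the synthesis set, and 3 of 7 red cell markers, Alas2 among them, lie between -1.34 and -1.63.

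Some markers of several cell types, among them red cells, endothelium and stellate cells, were lower at the upper doses, and their part in the results above was not tested. Of the red cell markers 3 of 7 passed as lower at 611 mg/kg (Alas2, Hbb and Hba-a3), where 7.46% of all genes passed in either direction. The mean over the list was 7.36 to 7.78 at 611 mg/kg and 8.26 to 8.40 in vehicle. The beta-globin gene Hbb fell by 1.63 ± 0.24 (limma adjusted p = 0.000689). Endothelial markers had 4 of 6 lower, with list means of 8.55 to 8.61 at 611 mg/kg and 9.03 to 9.26 in vehicle, and stellate cell markers 1 of 8 lower, with a median rat at 7.72 at 611 mg/kg and 8.19 in vehicle and no overlap of the groups. List means of macrophage markers (0 of 8 passed, 9.31 to 9.71 at 611 mg/kg and 9.37 to 9.93 in vehicle) and of hepatocyte markers (0 of 8, 13.42 to 13.61 and 13.55 to 13.70) overlapped between the groups. Those of cholangiocytes (1 of 4 higher and 1 lower, 6.95 to 6.99 and 6.64 to 7.06) and neutrophils (0 of 3, 5.73 to 6.37 and 5.81 to 6.68) overlapped too. The lymphocyte list (0 of 5) lay at 5.64 to 5.66 at 611 mg/kg, below the vehicle range of 5.78 to 5.90. All 8 macrophage markers had negative differences at 305.5 and 611 mg/kg (medians -0.38 and -0.30), and 0 passed at either dose. At 153 mg/kg the endothelial mean was 9.18 to 9.21 and the red cell mean 7.83 to 8.45, both overlapping vehicle. The stellate cell mean was 7.92 to 8.03 there and overlapped it as well. Differences at that dose were negative for 7 of 7 red cell, 7 of 8 stellate cell and 2 of 6 endothelial markers, and 0 passed. Their medians were -0.22, -0.18 and 0.09, against 0.0075 over all genes. At 305.5 mg/kg the endothelial mean was 8.53 to 8.87 and the stellate cell mean 7.59 to 7.96, both below the vehicle range. Of these markers 1 of 6 and 1 of 8 passed, against 2.22% of all genes. The red cell mean there was 8.03 to 8.38 and overlapped vehicle.

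The genes whose pattern over the 17 arrays was most like that of Alas1, among 10524 others with a mean of at least log2 6, were Mms22l, Haus1, Stmn1, St13 and Psmd5 (Pearson's r of 0.86 to 0.88). Of these Stmn1, which encodes a microtubule-destabilising protein, rose by 1.16 ± 0.18 at 611 mg/kg (limma adjusted p = 0.00124). For Clpx they were the vasopressin receptor gene Avpr1a, Syne1, Pkp2, Pkdcc and the angiotensin receptor gene Agtr1a (r of 0.91 to 0.92). Avpr1a fell by 1.36 ± 0.18 at 611 mg/kg (adjusted p = 0.000357). These are descriptions of arrays that share the dose groups.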

How the data were processed

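Liver RNA of 17 rats was measured on 1 oligonucleotide array per animal. The deposited values are log2 signals that the authors made with RMA, per the submitters' processing notes; the program used was not given in the sources used here. All 17 columns matched a label. Of 31099 probe sets, 57 were controls, the platform annotation of 2016 gives 20826 a single symbol, 9780 no symbol and 436 more than 1, and 20758 matched RefSeq (GRCr8) by gene ID with 0 symbols changed. This left 14217 genes, each read from its brightest probe set, with no filter on signal.

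The fit used limma 3.58.1 (R 4.3.3, eBayes with trend) with a mean for each of the 5 groups, and the procedure was checked on simulated data. Correlations used scipy 1.17.1. The members, lists and tests were chosen with earlier results of these data known. All members were named, and from each heme-related list the called genes and genes among the 4 with the smallest p at 611 mg/kg; Nrf1, Ppargc1a, Nr1i3, Clpp and Lonp1 were added for their roles, and the marker genes named are called ones. Alternatives covered normalization, probe set choice, a filter on dim genes, the variance model, array weights, the samples in the fit and the dose scale. Replicate numbers name rats. Deviations of same-numbered rats had a median r of 0.01 (from -0.26 to 0.40 over 30 pairs), against -0.02 over 84 other pairs. They were therefore not used as pairs.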

Additional observations from a re-analysis of the deposited data

How the results depend on the processing

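The 2 members called at 611 mg/kg stayed called in all 30 alternatives. Alas1 ranged from 0.81 to 1.05 (adjusted p from 0.000239 to 0.00815) and Clpx from -0.83 to -0.72 (adjusted p from 2.5e-05 to 0.00159). No called value changed sign, and 4 of 180 alternative values of called results missed the threshold. Weighting arrays by reliability gave 1 member at 76.5 mg/kg (Clpx, -0.32, adjusted p = 0.0179) and 2 at 305.5 mg/kg; its weights ran from 0.267 to 5.04 within the 76.5 mg/kg group. Leaving out the 3 arrays that stood apart also gave 2 at 305.5 mg/kg. At 153 mg/kg the count was 0 at an adjusted p under 0.01 and 0 to 1 with each rat left out in turn. The slope called 1 member over treated rats alone (Alas1, 0.33, adjusted p = 0.0213) and 1 without the 611 mg/kg group (Clpx, -0.22, adjusted p = 0.000688). With replicate number as a block, Alas1 was 0.84 (adjusted p = 0.00815) and Clpx -0.83 (adjusted p = 0.00129) at 611 mg/kg, no member's call changed, and of all genes 215 higher and 172 lower passed there. Over all genes the count at 611 mg/kg, 1060, ranged from 330 to 1884, at 305.5 mg/kg (316) from 120 to 1114, at 153 mg/kg (106) from 29 to 398 and at 76.5 mg/kg (38) from 4 to 696. Steps from the lowest pair gave 0 to 148, 0 to 210 and 11 to 333, and the slope (958) 5 to 1649. The causes were not tested. The refits of the second Uros probe set without arrays were chosen after seeing the data. With 3 rats a dose, a difference of the size seen for Urod at 611 mg/kg (0.17) lay outside the vehicle range but missed the threshold after adjustment over all genes.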
